A study of Trametes cinnabarina with 17 samples.

Results

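The transcriptome of *Pycnoporus cinnabarinus* CIRM-BRFM 137 on wheat straw was compared gene by gene with that on Avicel. Wheat straw, ground and sifted, stood for grass biomass, and Avicel is a crystalline cellulose preparation that stood for cellulose alone. The members of the comparison were 5 of the 17 libraries of the series, namely wheat straw replicates 1, 2 and 3 and Avicel replicates 1 and 3. They were taken by their labels and not by any measured value. Both media held 15 g/l of the substrate and 2.5 g/l of maltose according to the labels, and mycelium of this single strain was collected after 3 days of liquid culture. The study's text names each substrate as the sole carbon source, so that the 2.5 g/l of maltose rests on the labels. The remaining 12 libraries came from maltose (20 g/l), aspen, pine and a mixture of xylans and galactomannans (here xylan-galactomannan), the last 3 again at 15 g/l with 2.5 g/l maltose.

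White-rot basidiomycetes such as *P. cinnabarinus* depolymerise all the main polymers of plant cell walls. Cellulose is attacked by cellobiohydrolases, endoglucanases and lytic polysaccharide monooxygenases, many of which carry a cellulose-binding module, and the released oligosaccharides are cleaved by glucosidases. Wheat straw holds cellulose together with arabinoxylan, some pectin, esterified phenolic acids and lignin, for which fungi use side-chain glycosidases, pectinases, laccases and other oxidoreductases. Glycoside hydrolases (GH), auxiliary activities (AA) and carbohydrate-binding modules (CBM) are families of the CAZy classification of carbohydrate-active enzymes.

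The total count of the 5 libraries ranged from 13724145 to 15950092. Across genes, the log2 ratio of 2 libraries had an SD that ranged from 0.201 to 0.305 within wheat straw and was 0.401 between the Avicel libraries. Between a wheat straw and an Avicel library it ranged from 0.833 to 0.991. Avicel replicate 3 lay below Avicel replicate 1 in 51.0% of the 9162 genes tested. Among the 176 genes in the study's supplementary lists for this strain the share was 77.3%. Values without each Avicel library are therefore given where they differed by more than 1.5-fold.

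On wheat straw, 749 genes were higher than on Avicel (8.18% of the 9162 tested) and 655 were lower (7.15%). A gene was called at an adjusted p under 0.05 (edgeR quasi-likelihood test, Benjamini-Hochberg) with a log2 fold change over 1 in either direction, where every fold change is wheat straw minus Avicel. The median log2 fold change was 1.50 among the genes called higher and -1.51 among those called lower. Over all genes tested it was 0.00. A log2 fold change above 4 was reached by 32 of the genes called higher, and one below -4 by 23 of the genes called lower. In all 749 genes called higher the 3 wheat straw libraries lay above both Avicel libraries, and in 653 of the 655 called lower they lay below. The same separation without regard to a call was met by 34.4% of the tested genes upwards and by 34.9% downwards.

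Predicted functions were taken from the study's supplementary lists of selected genes, which hold 176 genes of this strain. The study annotated the whole genome, but that annotation was not used here. Of the 176 genes, 98 fell into 11 lists by CAZy family, orthology group or enzyme code. Of these 98 genes, 47 were called higher on wheat straw, 11 lower and 40 neither, beside 8.18% and 7.15% of all tested genes called higher and lower. The study chose most of the 176 for high transcription on aspen, pine or wheat straw and low transcription on maltose and Avicel. It then kept genes with a significant log2 fold change above 1 against maltose and, by its methods, Avicel. The 9 genes of the cellulose node were grouped by their transcript levels in these libraries, and the node was selected for its number of secreted proteins. The counts per list are thus no independent evidence of a direction. Outside these 176 genes lay 683 of the 749 genes called higher and 642 of the 655 called lower. The functions of those genes were not looked up.

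**Figure D1:**
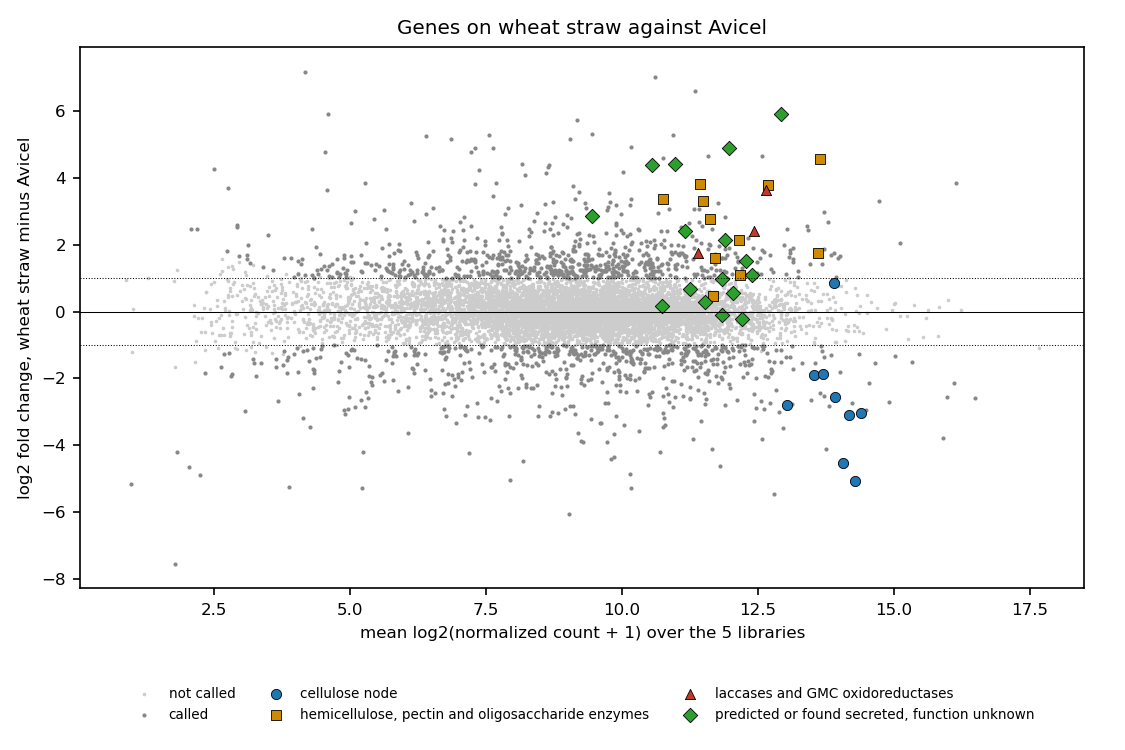
Log2 fold change on wheat straw against Avicel (vertical axis) against the mean log2(normalized count + 1) over the 5 libraries (horizontal axis), 1 point per gene for the 9162 genes tested. Dotted lines mark log2 fold changes of 1 and -1. The 8 lower members of the cellulose node (circles) sit between -5.09 and -1.87 at high mean levels, and 10 of the 11 hemicellulose, pectin and oligosaccharide enzymes (squares) sit above 1.

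Most genes of the cellulose node, which holds cellulases and their accessory enzymes, were lower on wheat straw than on Avicel. The node comprises 9 genes that shared a position, rich in secreted proteins, in the study's map. The map groups genes by similar transcript levels on maltose, Avicel, aspen, pine and wheat straw, so that the members resemble each other by construction and their common direction is a description. Of the 9 genes, 8 were called lower on wheat straw and none was called higher, beside 7.15% and 8.18% of all tested genes. Their median log2 fold change was -2.81, against 0.00 over all genes tested. Levels were compared within each gene only, since gene lengths were not used.

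The member that fell most was 5845, a GH7 protein of the family that holds the main fungal cellobiohydrolases. Its normalized counts were 4889, 4267 and 5501 on wheat straw replicates 1, 2 and 3, and 152183 and 181396 on Avicel replicates 1 and 3. The groups were far apart, with a log2 fold change of -5.09 ± 0.36 (SE), or 34.1-fold more on Avicel (edgeR adjusted p = 5.86e-09). The endoglucanase-family gene 8616 (CBM1-GH5_5) had 4614, 4545 and 5549 normalized counts on wheat straw against 114614 and 111227 on Avicel. This was a log2 fold change of -4.52 ± 0.25 (edgeR adjusted p = 2.57e-10). The second CBM1-GH5_5 gene, 1929, changed less, from 55853 and 37278 on Avicel to 5027, 8330 and 10082 on wheat straw, a log2 fold change of -2.57 ± 0.33.

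The auxiliary and accessory members were lower on wheat straw as well, with log2 fold changes between those of 8616 and 1929. The lytic polysaccharide monooxygenase 5579 (AA9-CBM1), which cleaves crystalline cellulose oxidatively, had 3319, 3522 and 4832 normalized counts on wheat straw and 30616 and 23900 on Avicel. Its log2 fold change was -2.81 ± 0.20 (edgeR adjusted p = 6.66e-09). The GH1 gene 4378, from a family rich in beta-glucosidases, had 7432, 7252 and 8869 on wheat straw against 71548 and 63958 on Avicel, a log2 fold change of -3.11 ± 0.16. For the glucanase 1365 (GH131-CBM1) the values were 7560, 8992 and 11553 against 84460 and 70848, a log2 fold change of -3.05 ± 0.30. The groups did not overlap in any of these 3 genes, an order that 34.9% of the tested genes showed.

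The 3 members outside the CAZy families did not move together. The predicted mutarotase 3419, an enzyme type that interconverts sugar anomers, had 6284, 6693 and 8185 normalized counts on wheat straw and 30707 and 21903 on Avicel, a log2 fold change of -1.90 ± 0.21. Gene 6394, which has no predicted function, went from 37889 and 21768 on Avicel to 6027, 8373 and 10108 on wheat straw, a log2 fold change of -1.87 ± 0.28. Gene 6605, a predicted serine carboxypeptidase, had 14320, 19670 and 25519 on wheat straw and 13409 and 8600 on Avicel, the opposite order. Its log2 fold change of 0.85 ± 0.30 passed the test but not the fold threshold (edgeR adjusted p = 0.0285). It was called higher without Avicel replicate 1 (1.21) and without wheat straw replicate 1 (1.04). It no longer passed the test without Avicel replicate 3 (0.57, edgeR adjusted p = 0.279), without wheat straw replicate 3 (0.63, edgeR adjusted p = 0.119) or without wheat straw replicate 2 (0.86, edgeR adjusted p = 0.0518).

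The cellulose node was nevertheless higher on wheat straw than on the 4 other media, by the group means of all 9 members. In each member the 3 wheat straw libraries exceeded the 3 maltose libraries, and so did both Avicel libraries, orders that 33.3% and 32.0% of the tested genes showed. The GH7 gene 5845 averaged 4886 ± 617 normalized counts on wheat straw (SD, n = 3) and 228 ± 22.8 on maltose (SD, n = 3). It averaged 460 ± 138 on aspen, 594 ± 78.0 on pine and 362 ± 217 on xylan-galactomannan (SD, n = 3 each). Of the 9 members, 8 had their highest group mean on Avicel and 1, the carboxypeptidase 6605, on wheat straw.

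**Figure D2:**
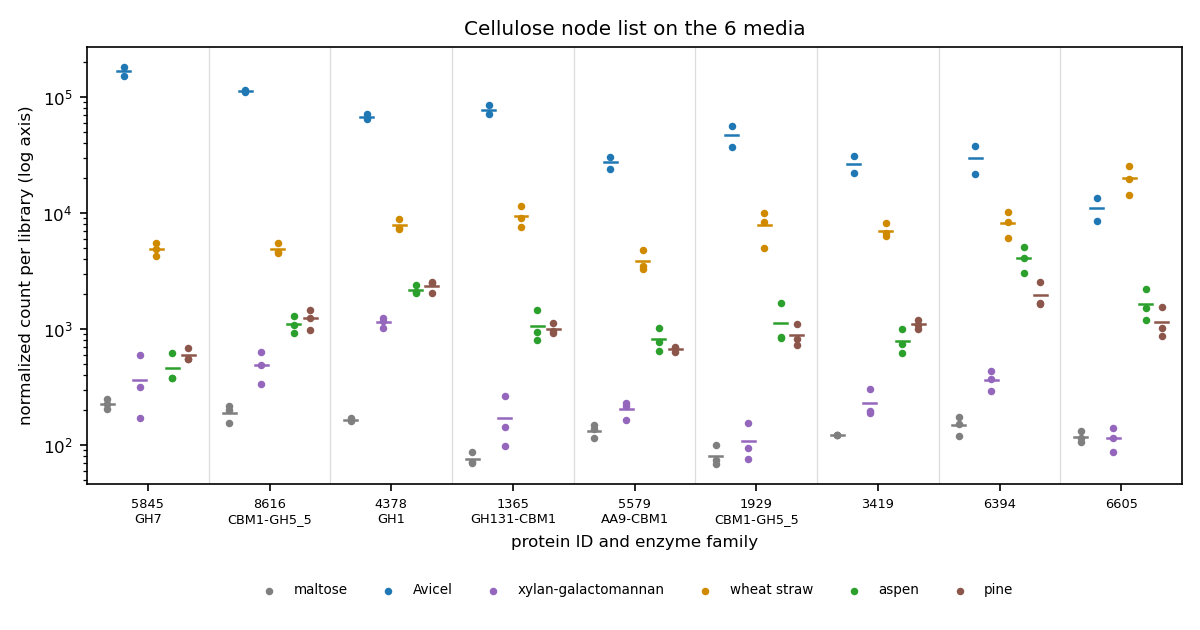
Normalized count per library (log axis) of the 9 genes of the cellulose node on the 6 media, with a bar at each group's mean. In 8 genes the 2 Avicel libraries lie above the 3 wheat straw libraries, and in 6605 they lie below them. These orders were shown by 34.9% and 34.4% of all tested genes.

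As a share of all counts the cellulose node took 3.66% and 3.57% of the Avicel libraries. On wheat straw replicates 1, 2 and 3 it took 0.443%, 0.543% and 0.678%. The share was 0.0918 ± 0.0239% on aspen, 0.0709 ± 0.000726% on pine and 0.0108 ± 0.00112% on maltose (SD, n = 3 each). The 11 hemicellulose, pectin and oligosaccharide enzymes showed the converse order, with 0.869%, 1.11% and 1.10% on wheat straw and 0.160% and 0.115% on Avicel. These shares carry no test.

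**Figure D3:**
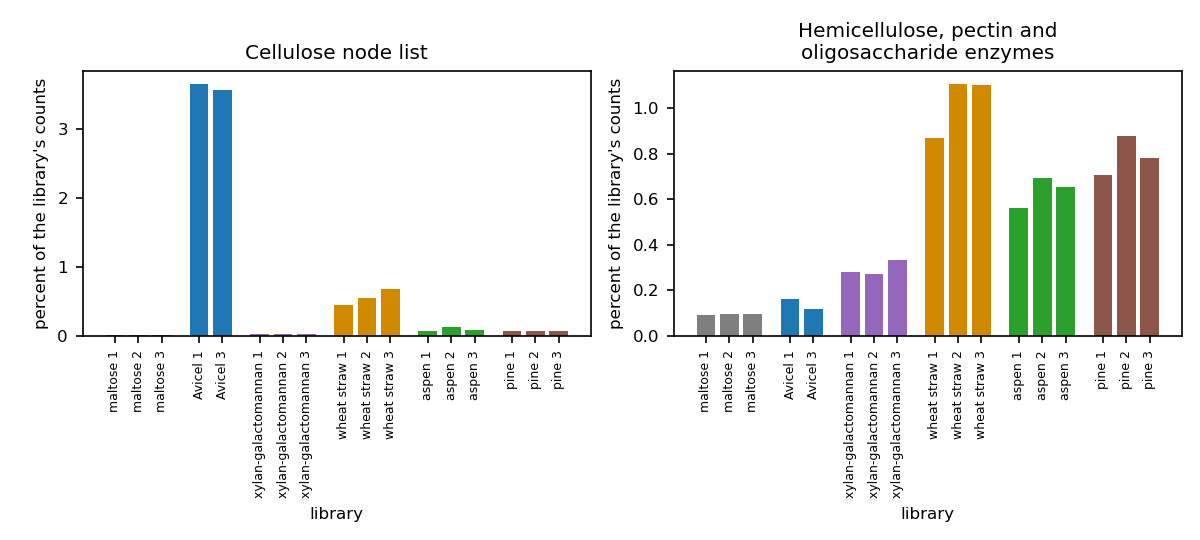
Percent of each library's total count held by the 9 genes of the cellulose node (left) and by the 11 hemicellulose, pectin and oligosaccharide enzymes (right), 1 bar per library. The vertical scales of the panels differ. The cellulose node reaches 3.66% on Avicel and at most 0.678% on wheat straw, and the hemicellulose, pectin and oligosaccharide enzymes reach 1.11% on wheat straw and at most 0.160% on Avicel.

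The listed enzymes that act on hemicellulose side chains, pectin and released oligosaccharides were mostly higher on wheat straw. The study selected all 11 from groups highly transcribed on plant substrates but not on maltose or Avicel. Their common direction is thus a description and does not extend to other genes of these families. Of the 11 genes in this list, 10 were called higher and none lower, beside 8.18% of all genes called higher. The median log2 fold change of the list was 2.77, against 0.00 over all genes tested. In all 11 genes the 3 wheat straw libraries lay above both Avicel libraries, an order that 34.4% of the tested genes showed.

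The gene with the largest change was 10401, an expansin-like protein. Expansins loosen contacts between wall polymers without hydrolysing them. It had 37882, 53317 and 45750 normalized counts on wheat straw against 1884 and 1975 on Avicel. The log2 fold change was 4.57 ± 0.30 (SE), or 23.7-fold (edgeR adjusted p = 2.14e-09). On pine it averaged 30469 ± 7666, on aspen 13929 ± 1729 and on maltose 688 ± 114 (SD, n = 3 each), and the lowest wheat straw library lay just above the highest pine library, at 37467.

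Several exo-acting glycosidases rose by 10-fold or more. The GH31 glucosidase 9738, of a family of alpha-glucosidases and alpha-xylosidases, had 7004, 8553 and 8792 normalized counts on wheat straw and 730 and 434 on Avicel, a log2 fold change of 3.81 ± 0.22. The galactosidase 7004 (GH35), which removes terminal galactose, had 17586, 19166 and 21459 on wheat straw and 1892 and 896 on Avicel. Its log2 fold change was 3.80 ± 0.27, and 4.44 without Avicel replicate 1. The mannosidase 1092 (GH2), which releases mannose from mannan oligosaccharides, had 4216, 4525 and 4664 against 528 and 333, a log2 fold change of 3.38 ± 0.18. In 9738, 7004 and 1092 both Avicel libraries lay within 2-fold of the mean on maltose, which was 807 ± 14.7, 1064 ± 2.93 and 344 ± 24.3 (SD, n = 3 each).

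The other members called higher spanned log2 fold changes from 1.08 to 3.32. They were the GH3 glucosidase 4566 (3.32), the GH28 polygalacturonases 3798 (2.77) and 8001 (1.75), the GH27 galactosidase 7245 (2.15), the GH95 fucosidase-family gene 929 (1.60) and the GH88 glucuronyl hydrolase 8220 (1.08). Polygalacturonases cut the pectin backbone, and GH88 enzymes remove the unsaturated uronic acids that lyases leave. Gene 929 changed by 2.57 without Avicel replicate 1. In the polygalacturonase 8001 Avicel itself lay well above maltose, with 8069 and 4406 normalized counts there against a mean of 587 ± 89.8 on maltose (SD, n = 3). The GH79 glucuronidase-family gene 2526 was not called, at a log2 fold change of 0.46 ± 0.14 (edgeR adjusted p = 0.0102).

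The listed laccases and a glucose-methanol-choline (GMC) oxidoreductase, which came from the same selection, were also higher on wheat straw. Laccases are multicopper oxidases that oxidise phenolic parts of lignin, and GMC oxidoreductases of AA3_2 oxidise alcohols or sugars and release hydrogen peroxide. All 3 genes of this list were called higher, beside 8.18% of all genes, with a median log2 fold change of 2.40. The laccase 3446 had 20053, 16955 and 16144 normalized counts on wheat straw and 1425 and 1419 on Avicel. The log2 fold change was 3.64 ± 0.20, or 12.5-fold (edgeR adjusted p = 2.79e-10). Wheat straw gave its highest mean, 17717 ± 2063, followed by aspen with 4981 ± 284 and pine with 2676 ± 315 (SD, n = 3 each).

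The second laccase differed from the first in the order of the substrates. Gene 8672 had 11444, 12471 and 9039 normalized counts on wheat straw and 1427 and 2732 on Avicel, a log2 fold change of 2.40 ± 0.32. Its mean on aspen, 71692 ± 4263 (SD, n = 3), was far above that on wheat straw, 10985 ± 1761 (SD, n = 3). The GMC oxidoreductase 3421 had 4746, 4538 and 3858 on wheat straw and 1235 and 1375 on Avicel, a log2 fold change of 1.75 ± 0.38. It was not called under the Bonferroni adjustment.

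**Figure D4:**
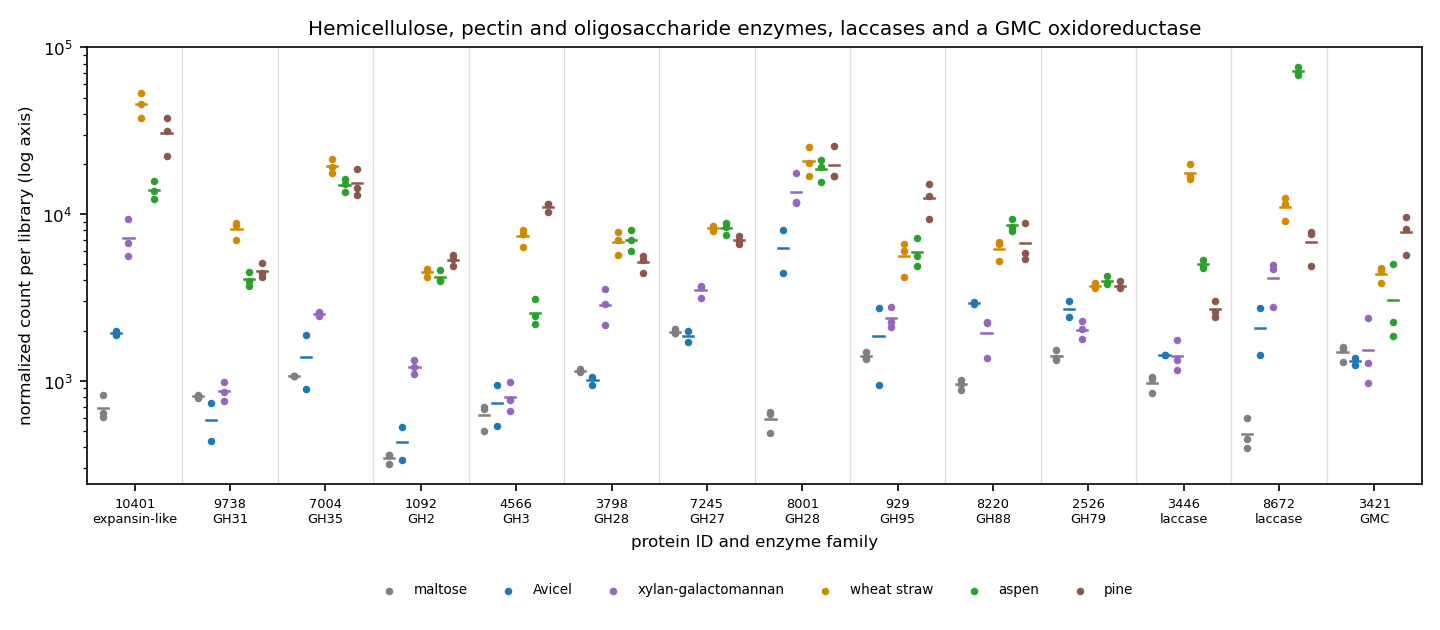
Normalized count per library (log axis) of the 11 hemicellulose, pectin and oligosaccharide enzymes (left) and the laccases and GMC oxidoreductase (right 3 genes) on the 6 media, with a bar at each group's mean. In each of the 14 genes the 3 wheat straw libraries lie above both Avicel libraries, an order that 34.4% of the tested genes showed. The laccase 8672 peaks on aspen at a mean of 71692.

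Cytochrome P450s, haem monooxygenases that take part in the turnover of phenolic and other hydrophobic compounds in fungi, rose for 2 of 5 genes and none fell, beside 8.18% and 7.15% of all genes called higher and lower. The median log2 fold change was 0.94. Gene 2161 had 9161, 9650 and 9685 normalized counts on wheat straw against 1790 and 2334 on Avicel, a log2 fold change of 2.21 ± 0.20. Gene 1192 had 2719, 3136 and 3033 against 1185 and 791, a log2 fold change of 1.59 ± 0.18. The other 3 genes had log2 fold changes between 0.80 and 0.94, under the fold threshold, and their wheat straw libraries also lay above both Avicel libraries, as in 34.4% of all tested genes. Neither 2161 nor 1192 had its highest mean on wheat straw, since 2161 averaged 17185 ± 4239 on pine and 1192 averaged 13875 ± 1423 on aspen (SD, n = 3 each).

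Of 20 transporters, 8 were called higher on wheat straw and none lower (8.18% and 7.15% of all genes), with a median log2 fold change of 0.79. The largest difference was in 2165, a transporter of the sugar type within the major facilitator superfamily. It had 8960, 8046 and 8619 normalized counts on wheat straw and 267 and 170 on Avicel, where the level was near the maltose mean of 292 ± 24.3 (SD, n = 3). The log2 fold change was 5.29 ± 0.22, or 39.2-fold (edgeR adjusted p = 2.11e-11). The other 2 transporters of the sugar type, 6154 and 6423, rose less, with log2 fold changes of 1.49 and 1.21. Gene 6423 was already at 8112 and 3947 on Avicel against a maltose mean of 751 (SD 28, n = 3), and its log2 fold change was 1.83 without Avicel replicate 1.

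Both members of the aquaporin family, which pass water or small solutes through membranes, rose. Gene 7930 had 3681, 4820 and 4790 normalized counts on wheat straw against 676 and 380 on Avicel, a log2 fold change of 3.07 ± 0.26. Gene 7058 had 7616, 4933 and 5154 against 2542 and 1325, a log2 fold change of 1.61 ± 0.33. The phosphate transporter 1924 had 2879, 3858 and 4212 against 1385 and 877, a log2 fold change of 1.69 ± 0.21. The remaining 2 called transporters, 4923 and 9363, lay at 1.10 and 1.04. The 12 not called ranged from 0.11 to 1.02. Without Avicel replicate 1 the count of called transporters was 11, and without Avicel replicate 3 it was 5.

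Intracellular reductases and sugar kinases held the largest change of any list. Of 10 genes, 6 were called higher and 1 lower (8.18% and 7.15% of all genes), with a median log2 fold change of 1.42. Gene 104 belongs to the short-chain reductases and has the enzyme code of an arabinitol dehydrogenase, which interconverts a pentitol and a pentulose. It had 8976, 13096 and 12918 normalized counts on wheat straw against 140 and 41.1 on Avicel. The log2 fold change was 7.03 ± 0.44, or 131-fold (edgeR adjusted p = 1.44e-09), and lay at 8.15 without Avicel replicate 1 and 6.39 without Avicel replicate 3. Its mean on maltose, 407 ± 75.3, was above both Avicel libraries, and wheat straw had the highest mean of the 6 media.

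The aldo/keto reductase 3335 had 5518, 6261 and 7041 normalized counts on wheat straw against 312 and 206 on Avicel, a log2 fold change of 4.60 ± 0.27. Aldo/keto reductases include the fungal enzymes that reduce xylose and arabinose to pentitols. In contrast to 104, its highest mean was on xylan-galactomannan, 17869 ± 2627 (SD, n = 3). The glycerol kinase type gene 3400 had 6729, 6972 and 7693 against 2769 and 1059, a log2 fold change of 1.90 ± 0.30 that reached 2.76 without Avicel replicate 1. The alcohol dehydrogenase 420 had 4555, 5364 and 5735 against 1716 and 1124, a log2 fold change of 1.88 ± 0.21.

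The zinc-binding oxidoreductase 6014 was the exception in this list. It had 2526, 2669 and 3410 normalized counts on wheat straw and 6858 and 5169 on Avicel, a log2 fold change of -1.07 ± 0.20. The call was lost without Avicel replicate 1 (-0.84) and without wheat straw replicate 1 (-0.98). The 3 genes not called included the xylulokinase type gene 8966, whose product phosphorylates xylulose on the way to the pentose phosphate pathway. It had 5053, 3526 and 3477 normalized counts on wheat straw and 3802 and 2779 on Avicel, and these ranges overlapped (log2 fold change 0.29 ± 0.22, edgeR adjusted p = 0.305).

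The other CAZymes comprised 13 genes, mainly mannosidases, chitinases and glucanases that also act on fungal walls or glycoproteins. Of these, 6 were called higher and 1 lower (8.18% and 7.15% of all genes), with a median log2 fold change of 0.79. Avicel replicate 3 lay below Avicel replicate 1 in all 13, and in 51.0% of the tested genes. The median was 1.23 without Avicel replicate 1 and 0.43 without Avicel replicate 3. The mannosidase 6860 (GH92) had 11295, 12268 and 11980 normalized counts on wheat straw against 715 and 235 on Avicel. Its log2 fold change was 4.65 ± 0.39, with 5.66 without Avicel replicate 1 and 4.06 without Avicel replicate 3. The 2 further GH92 genes did not follow to this extent, since 598 changed by 1.30 (2.03 without Avicel replicate 1) and 6857 was not called at 0.79.

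The trehalase 6931 (GH37), which splits the storage sugar trehalose, had 4610, 5077 and 4842 normalized counts on wheat straw and 1458 and 761 on Avicel, a log2 fold change of 2.13 ± 0.23. The mannosidase 10255 (GH125) had 6360, 6686 and 6355 against 1985 and 1519, a log2 fold change of 1.89 ± 0.20. The GH5 glucanase 7620 had 8629, 11312 and 10580 against 2958 and 2720, a log2 fold change of 1.84 ± 0.19. In these 3 genes the wheat straw libraries lay above both Avicel libraries. This order held in 8 of the 13 genes of the list and in 34.4% of all tested genes. The chitinase-family gene 1643 (GH18) was lower on wheat straw, at 571, 979 and 819 against 3089 and 1373. The Avicel replicates of 1643 differed by more than 2-fold, and its log2 fold change of -1.49 ± 0.29 became -0.79 without Avicel replicate 1, no longer called. The other 2 GH18 genes, 7817 and 2012, had log2 fold changes of 0.19 and 0.34 and were not called.

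Of 4 peptidases, 1 was called higher and 1 lower (8.18% and 7.15% of all genes). The tripeptidyl peptidase type gene 5902 had 2774, 2161 and 1529 normalized counts on wheat straw against 1004 and 552 on Avicel, a log2 fold change of 1.47 ± 0.29. The aspartic peptidase 2469, of the pepsin type, had 2178, 3083 and 2755 against 4559 and 7651, a log2 fold change of -1.19 ± 0.19. Without Avicel replicate 3 the latter was -0.76 and not called. The other 2 peptidases were not called.

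In central carbon metabolism 1 of 4 genes was called higher (8.18% of all genes), citrate synthase (4483), the entry step of the tricarboxylic acid cycle. It had 3557, 4364 and 4189 normalized counts on wheat straw against 1845 and 1584 on Avicel, a log2 fold change of 1.24 ± 0.18. The other 3 lay between 0.70 and 0.99, under the fold threshold, and 3 of the 4 were called without Avicel replicate 1 or without wheat straw replicate 1. Of 3 genes for aromatic and epoxide metabolism, homogentisate dioxygenase (6432), which opens the ring of an aromatic acid from tyrosine breakdown, was called higher (8.18% of all genes). It had 326, 478 and 414 normalized counts against 194 and 192, a log2 fold change of 1.08 ± 0.22 that was 0.94 and not called without wheat straw replicate 2. Its mean on aspen was 10383 ± 1887 (SD, n = 3), so that the level on both substrates compared here was low for this gene.

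**Figure D5:**
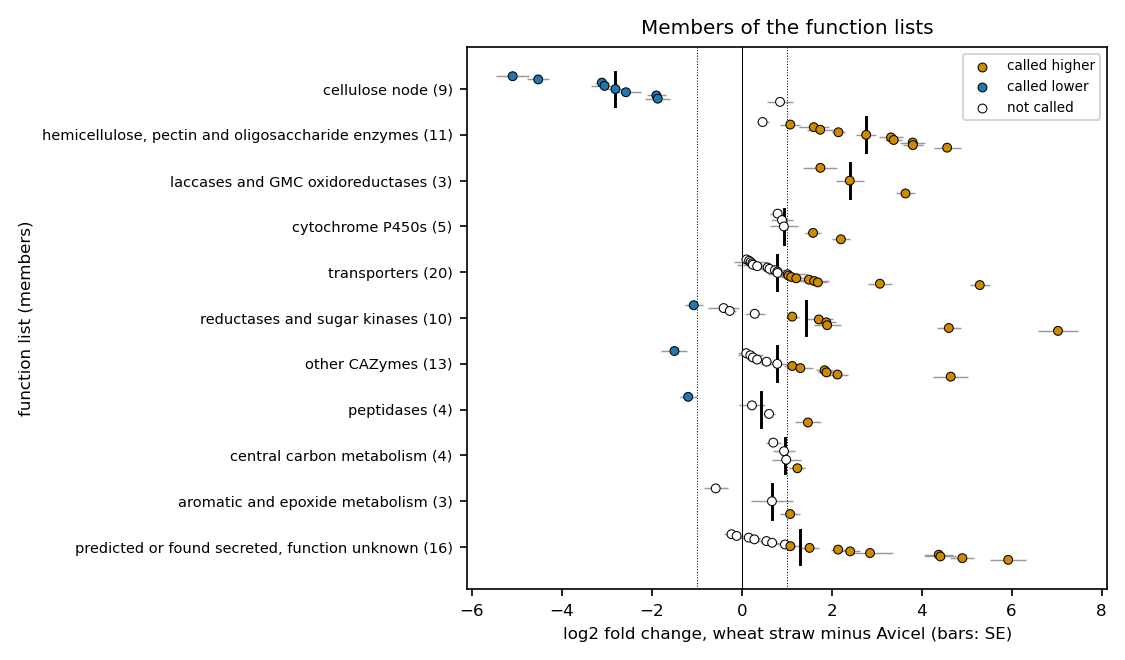
Log2 fold change, wheat straw minus Avicel, of each member of the 11 function lists (points, with bars for the SE), with the median of each list as a vertical stroke and dotted lines at -1 and 1. Filled points were called higher or lower. The cellulose node lies to the left with a median of -2.81, the hemicellulose, pectin and oligosaccharide enzymes to the right with a median of 2.77, and the largest change is that of the short-chain reductase 104 at 7.03.

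Of 16 genes for proteins predicted or found to be secreted, without a predicted function, 9 were called higher on wheat straw and none lower (8.18% and 7.15% of all genes). Their median log2 fold change was 1.30. The study detected 6 of the 16 proteins in its secretomes, and the other 10 have a predicted signal peptide only. Gene 3445, with a predicted signal peptide only, had 38863, 41261 and 41094 normalized counts on wheat straw and 542 and 790 on Avicel, a log2 fold change of 5.92 ± 0.39, or 60.7-fold (edgeR adjusted p = 2.76e-09). Wheat straw gave its highest mean, and aspen followed with 21368 ± 1612 (SD, n = 3). Gene 1391, likewise with a signal peptide only, had 15538, 15978 and 15721 against 637 and 416, a log2 fold change of 4.90 ± 0.27. Gene 3895 had 7657, 6926 and 5884 against 334 and 306, a log2 fold change of 4.42 ± 0.34, and gene 5077 had 4444, 6015 and 5288 against 360 and 147, a log2 fold change of 4.38 ± 0.32. The last value was 5.16 without Avicel replicate 1. In these 4 genes no Avicel library exceeded 790 and no wheat straw library was under 4444. The wheat straw libraries lay above both Avicel libraries in 13 of the 16 genes and in 34.4% of all tested genes.

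The genes for these 16 proteins took 0.918 ± 0.0334% of the counts on wheat straw (SD, n = 3) and 0.203 ± 0.00778% on Avicel (SD, n = 2), while maltose stood at 0.201 ± 0.00895% (SD, n = 3). For this list Avicel and maltose were within 1 SD of each other.

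Among the other 78 annotated genes, 19 were called higher and 2 lower (8.18% and 7.15% of all genes). The largest changes there, singled out after their values were seen, were those of 8079 and 9620, for which the annotation holds an orthology group only or an uncertain enzyme code. Gene 8079 had 18438, 16080 and 14286 normalized counts on wheat straw against 151 and 180 on Avicel, a log2 fold change of 6.62 ± 0.43. Gene 9620 had 21107, 24411 and 23184 against 1277 and 560, a log2 fold change of 4.64 ± 0.31 that was 5.36 without Avicel replicate 1.

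Genes outside the study's supplementary lists, whose functions were not looked up, also showed large differences in both directions. At the lower extreme, gene 2748 had 1754, 1457 and 1650 normalized counts on wheat straw and 96358 and 45761 on Avicel. Its log2 fold change was -5.45 ± 0.27 (edgeR adjusted p = 1.09e-10), and -4.81 without Avicel replicate 1. Its means on the 4 remaining media lay between 1279 ± 78.6 on maltose and 2532 ± 567 on xylan-galactomannan (SD, n = 3 each), close to wheat straw. Gene 8108 had 124, 72.1 and 94.3 on wheat straw and 6354 and 6701 on Avicel, a log2 fold change of -6.07 ± 0.53, and its mean on maltose was 2230 ± 842. For 8108 wheat straw had the lowest mean of the 6 media.

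At the upper extreme, gene 4818 had 2308, 3068 and 3038 normalized counts on wheat straw and 55.3 and 50.1 on Avicel, a log2 fold change of 5.74 ± 0.29. Its level on wheat straw stood apart from all other media, where the highest mean was 292 ± 37.1, on pine (SD, n = 3). Gene 6632 had 96.4, 111 and 107 normalized counts on wheat straw but only 3 reads in the 2 Avicel libraries together. The ratio of its means was 64.6, with an exact Poisson 95% interval of 22.1 to 313 that covers the counting error of the 3 reads only. Its log2 fold change of 5.91 ± 0.50 was 6.55 without Avicel replicate 1. Wheat straw was not its highest medium, since aspen averaged 174 ± 40.5.

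The study called groups of genes highly transcribed when their mean exceeded a log2 read count of 12. Here that level was applied to each gene singly, to its group mean on the scale log2(normalized count + 1). It was exceeded by 611 of the tested genes on wheat straw, by 676 on Avicel and by 442 on both. Of the 9162 tested genes, 95 were called higher and exceeded it on wheat straw but not on Avicel. The 95 included 9 of the 11 hemicellulose, pectin and oligosaccharide enzymes and all 3 laccases and GMC oxidoreductases. They also included 6 transporters and 8 of the 16 genes for predicted or detected secreted proteins without a predicted function. Another 42 were outside the study's supplementary lists. The study chose most genes of those lists by this level, on plant substrates and not on maltose or Avicel, in these same libraries. The presence of list members is thus no independent evidence. Wheat straw was the medium with the highest mean for 31 of the 95, pine for 34 and aspen for 23. Among all 9162 tested genes these numbers were 800, 1922 and 1557.

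The opposite selection held 141 genes that were called lower and exceeded the level on Avicel only. The study's supplementary lists held 4 of them, among them the lytic polysaccharide monooxygenase 5579, the aspartic peptidase 2469 and the zinc-binding oxidoreductase 6014. Few genes of those lists could enter this selection, since the study chose most of them for low transcription on maltose and Avicel. Avicel was the medium with the highest mean for 104 of the 141, beside 1551 of the 9162 tested genes. The selection itself requires a higher level on Avicel than on wheat straw. The other 7 lower members of the cellulose node are absent from this selection because they exceeded the level on wheat straw as well.

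The genes that differed between wheat straw and Avicel were set beside comparisons that share no library with it, those of aspen, pine and xylan-galactomannan against maltose. Of the 749 genes higher on wheat straw, 425 were also higher on aspen than on maltose. This is 56.7% of the 749 and 35.5% of the 1196 genes higher on aspen, a class that held 13.1% of the tested genes. For pine, 429 genes were shared, 57.3% of the 749 and 34.3% of 1252, beside 13.7% of the tested genes. For xylan-galactomannan the shared genes were 196, 26.2% of the 749 and 30.7% of 639, beside 6.97%. In the opposite direction, 76 of the 749 were lower on aspen than on maltose (10.1%, beside 10.0% of the tested genes), 21 were lower on pine (2.80%, beside 9.34%) and 47 were lower on xylan-galactomannan. The last are 6.28% of the 749 and 16.0% of 293, beside 3.20%.

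Of the 655 genes lower on wheat straw, 180 were also lower on aspen than on maltose, 27.5% of the 655 and 19.6% of 918, beside 10.0% of the tested genes. For pine 197 were shared, 30.1% of the 655 and 23.0% of 856, beside 9.34%. For xylan-galactomannan 34 were shared, 5.19% of the 655 and 11.6% of 293, beside 3.20%. In the opposite direction, 82 of the 655 were higher on aspen than on maltose (12.5%, beside 13.1%), 76 were higher on pine (11.6%, beside 13.7%) and 88 were higher on xylan-galactomannan (13.4%, beside 6.97%). For xylan-galactomannan both shares lay above those of all tested genes. The class higher on this medium was also the larger one over all tested genes, with 639 genes against 293 lower.

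The mean on maltose placed the called genes between, below or above wheat straw and Avicel. Of the 749 genes higher on wheat straw, maltose lay below both substrates in 281, between them in 374 and above both in 94. Of the 655 lower genes it lay below both in 145, between them in 372 and above both in 138. Among all 9162 tested genes the corresponding numbers were 3019, 3143 and 3000. These orders are those of group means and carry no test.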

How the data were processed

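RNA-seq libraries of *P. cinnabarinus* mycelium were analysed from 2 deposited tables. The authors sequenced poly-A RNA as paired-end reads, filtered them for quality, aligned them with TopHat2 and counted reads per gene model with HTSeq. The deposited counts cover 10442 gene models in 17 libraries, of which 829 had no count. The second table is a deposited normalized signal for 9167 gene models, that is the counts that the authors divided by 1 DESeq size factor per library (DESeq 1.5 per the labels), on a linear scale. Genome build, strand use and the handling of multi-mapping reads: not given in the sources used here. Counts of paralogues and of overlapping genes are therefore uncertain. The study describes its cultures as independent. An Avicel replicate 2 was not analysed here.

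The counts were tested with edgeR 4.0.16 (R 4.3.3): filterByExpr left 9162 genes, libraries were scaled by TMM, and 1 quasi-likelihood fit by group used all 17 libraries, which share its estimate of the spread. P-values were adjusted by Benjamini-Hochberg over all 9162 genes. Since the study gives FDR and Bonferroni as its corrections, the latter was an alternative. The SE was taken from the fold change and the F statistic. Normalized counts are the counts divided by the authors' size factors. The script was tested on simulated data. DESeq2 1.42.0, RLE and upper-quartile scaling, no filter, the 5 libraries alone, other thresholds, a replicate block and leaving out each library were the alternatives.

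Lists were built from the study's annotation tables by CAZy family, orthology group and enzyme code. The members and lists were chosen with earlier results of these data known. Text names every gene of the cellulose node and, for each other list, up to 4 called genes with the largest change plus any called against the list's direction. Outside the study's supplementary lists it names the 2 highest and 2 lowest log2 fold changes. These were taken among called genes with separate replicates and a mean of at least 100 normalized counts in the higher group. Further list members are given in passing to complete a family, chosen after their values were seen. The files do not pair protein IDs with gene names, and 0 IDs were found in the RefSeq table of this species, so neither coordinates nor sequences are given.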

Additional observations from a re-analysis of the deposited data

How the results depend on the processing

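Avicel was represented by 2 libraries. When 1 library was left out at a time, the number of called genes ranged from 1289 to 1591, with 660 to 916 higher and 623 to 696 lower, where a lone Avicel library was assumed to vary like the other groups. The highest value of both the total and the higher genes came without Avicel replicate 1, and the lowest without Avicel replicate 3. The cellulose node kept 8 lower members, and the hemicellulose, pectin and oligosaccharide list 10 higher members, in each of these 5 fits. RLE and upper-quartile scaling, DESeq2, no filter and the 5 libraries alone each gave total counts within 1.5 times the main value, and the median of all genes moved by at most 0.026 on the log2 scale. The share of counts held by the cellulose node is the same on normalized counts by construction.

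Thresholds moved the counts, as fewer or more genes pass by definition. Bonferroni adjustment left 844 called genes (428 higher, 416 lower), no fold threshold gave 3793 (1853 higher, 1940 lower), and a log2 threshold of 2 left 364 (179 higher, 185 lower) with 29 list members of 58. The highly transcribed genes fell to 42 on wheat straw and 57 on Avicel with that threshold, and to 46 and 74 at a level of 13. Genes shared with aspen, pine and xylan-galactomannan against maltose were 257, 254 and 95 upwards and 95, 93 and 6 downwards under Bonferroni. They were 1056, 1054 and 665 upwards and 926, 968 and 424 downwards without a fold threshold, and 121, 111 and 39 upwards and 35, 46 and 1 downwards at a threshold of 2.

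The replicate block gave 1400 called genes, 750 higher and 650 lower. The deviations of same-numbered libraries correlated at -0.24 for replicate 1 and -0.19 for replicate 3. With 2 Avicel libraries the deviations mirror each other by construction. Wheat straw replicates 1 and 3 thus correlated at 0.24 and 0.19 with the other Avicel library. These values cannot decide whether same-numbered libraries belong together, and the main fit took them to share only a number. Of 644 values recomputed for 46 genes, none reversed and 32 changed sides of a threshold, in 17 genes. Bonferroni adjustment ended the calls of 3421, 7058, 3400, 6014, 1643, 5902, 2469 and 6432.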
